A study of Mus musculus with 5 samples.

Results

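The 10 genes described here encode the constant parts of mouse antibodies and the proteins that mark antibody secretion, and they were followed through blood mononuclear cells by single-cell RNA sequencing. They are the heavy-chain constant genes Ighm, Ighd, Ighg1, Ighg2b, Ighg2c, Ighg3 and Igha, the kappa light-chain constant gene Igkc, the joining chain Jchain and the receptor Tnfrsf17. They were chosen by gene symbol, and all 10 were among the 33696 genes listed in each of the 5 deposited libraries. The NO2-OA library (1 library) came from C57BL/6N mice on a high-fat diet (HFD) with L-NAME, which blocks nitric oxide synthases, over 15 weeks, with nitro-oleic acid (NO2-OA), a nitrated fatty acid that reacts with protein thiols, added in the last 4 weeks. The HFD + L-NAME libraries (2) came from mice on the same regimen without nitro-oleic acid, and the chow libraries (2) from mice on standard food. The regimen is used in mice to model HFpEF, heart failure in which the ejection fraction is preserved. All cells were frozen and thawed before droplet capture, and the labels do not state that each library is 1 animal, so the p-values below measure the spread between libraries only.

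A resting B cell carries IgM and IgD on its surface, and both heavy chains are spliced from 1 transcription unit that runs through Ighm into Ighd. Class switching then replaces Ighm by an IgG gene or by Igha on the same chromosome, and a B cell that matures into a plasmablast or plasma cell makes a large excess of heavy-chain, light-chain and Jchain RNA. The J chain links IgA and secreted IgM into larger complexes. Tnfrsf17 encodes BCMA, the receptor for APRIL and BAFF that supports the survival of plasma cells.

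The heavy-chain genes differ at the end of the secreted chain, which is shown because it is where the J chain attaches. The last 60 coding bases before the stop codon are given for the secreted forms in GENCODE M21 (GRCm38, chromosome 12, minus strand), 5′ to 3′, with a cysteine codon in the penultimate position in capitals.
Ighm: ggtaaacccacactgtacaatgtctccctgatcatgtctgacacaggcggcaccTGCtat
Igha: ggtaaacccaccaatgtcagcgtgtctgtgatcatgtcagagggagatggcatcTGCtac
Ighg1: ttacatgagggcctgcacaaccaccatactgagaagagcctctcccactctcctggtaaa
Ighg2b: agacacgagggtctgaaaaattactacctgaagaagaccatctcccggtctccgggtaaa
Ighg2c: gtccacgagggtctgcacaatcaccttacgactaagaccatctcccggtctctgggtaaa
Ighg3: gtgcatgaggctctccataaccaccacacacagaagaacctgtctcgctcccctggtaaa
Ighm and Igha share this penultimate cysteine codon, and none of the 4 IgG genes has one there. Over their whole coding sequence Ighg2b and Ighg2c were 85.6% identical, other pairs of IgG genes 74.1% to 76.2%, and Ighm and Igha 47.6%. No pair shared a run of 90 identical coding bases, but UMIs of the IgG genes could still be exchanged between close copies. The libraries were built from the 3′ end of the RNA, and the deposited matrices hold 1 row per gene, so secreted and membrane-bound forms were not separated. The files use another genome build (mm39), and coordinates are therefore not given.

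The libraries held 66693 barcodes and 479010313 UMIs (unique molecular identifiers, each counting 1 captured RNA molecule), and the median barcode had 5741 to 7043.5 UMIs. Filtering left 54971 cells outside predicted doublets, of which 25375 fell into 6 clusters named B-like from their markers, such as Cd79a and Ms4a1. B-like cells made up 39.3% of the kept cells in the NO2-OA library, 55.1% and 41.5% in HFD + L-NAME libraries, and 42.4% and 54.4% in chow libraries. Any 2 libraries shared 28 to 77 barcode sequences, at most 0.613% of a library, and none of the secreting-like barcodes described below was shared. The library HFD + L-NAME 2 stood apart in that the B-like cluster led by Sox5 held 16.6% of its B-like cells, against 3.02% to 5.70% in the other 4 libraries.

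The members fell into a set that was spread over the B cells and a set that was held by a handful of barcodes. Ighm, the first heavy chain that a B cell makes, had 70124 UMIs in the NO2-OA library, 80327 and 92245 in HFD + L-NAME libraries, and 90886 and 88754 in chow libraries. Igkc, the constant part of the kappa light chain, had 142983 UMIs in the NO2-OA library, 163515 and 143371 in HFD + L-NAME libraries, and 121021 and 174532 in chow libraries. The 10 barcodes with most Ighm held only 0.827% to 2.29% of its UMIs, and 744 to 1937 barcodes were needed to reach 50% of them. Ighd, which marks mature B cells, was spread in the same way, with 621 to 1530 barcodes for 50% of its 72792 UMIs.

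Igha, the heavy chain of IgA, had 10062 UMIs in the NO2-OA library, 1552 and 245 in HFD + L-NAME libraries, and 3957 and 1435 in chow libraries. Between 1 and 3 barcodes held 50% of them in every library, and the top 10 barcodes held 98.1% in the NO2-OA library, 95.2% and 73.5% in HFD + L-NAME libraries, and 96.5% and 95.2% in chow libraries. Jchain had 4678 UMIs in the NO2-OA library, 537 and 136 in HFD + L-NAME libraries, and 1853 and 625 in chow libraries, with 97.8% to 100% of them in the top 10 barcodes. Tnfrsf17 had 107 UMIs in the NO2-OA library, 3 and 8 in HFD + L-NAME libraries, and 28 and 14 in chow libraries. For Jchain and Tnfrsf17 the NO2-OA library was highest, and both HFD + L-NAME libraries were below both chow libraries. For Igha the HFD + L-NAME and chow libraries overlapped. The 4 IgG genes were scarce, with 212 UMIs of Ighg1, 989 of Ighg2b, 237 of Ighg2c and 826 of Ighg3 over all 5 libraries.

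**Figure D1:**
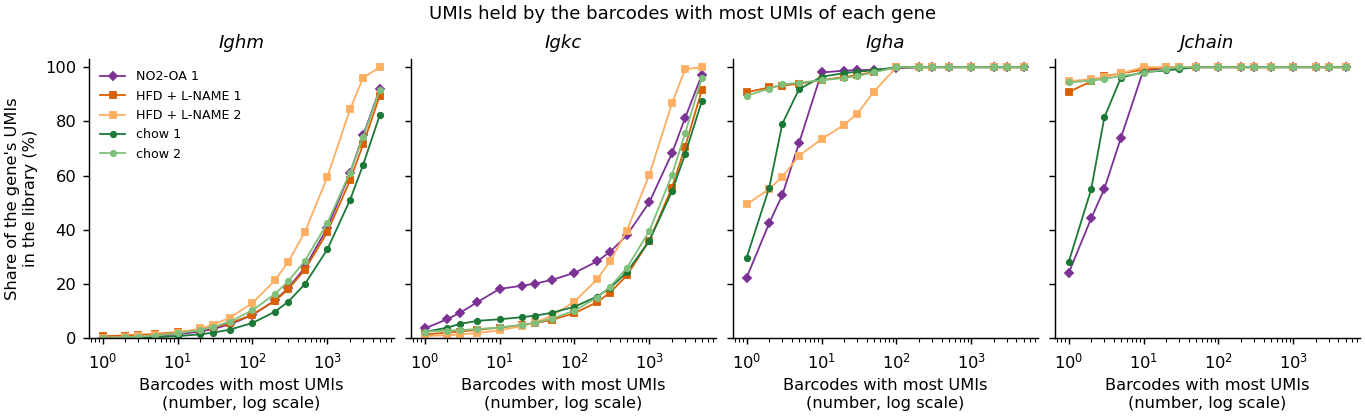
Share of the UMIs of Ighm, Igkc, Igha and Jchain (vertical axis, percent of the library's UMIs of that gene) held by the barcodes with most UMIs of that gene (horizontal axis, log scale), with 1 line per library. Ighm and Igkc need 725 to 1937 barcodes to reach 50%, whereas the 10 top barcodes hold 73.5% to 98.1% of Igha and 97.8% to 100% of Jchain.

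Barcodes were called secreting-like when the 8 antibody constant genes made up at least 5% of their UMIs and they held at least 3 Jchain UMIs. The rule uses 9 of the 10 members, so the levels of these 9 in the barcodes are a description. Of 66693 barcodes 17 met it, namely 9 in the NO2-OA library, 1 and 1 in HFD + L-NAME libraries, and 5 and 1 in chow libraries. Per 10000 barcodes these were 5.60 in the NO2-OA library (95% exact binomial interval 2.56 to 10.6), 0.781 (0.0198 to 4.35) and 1.18 (0.0298 to 6.56) in HFD + L-NAME libraries, and 2.78 (0.902 to 6.48) and 0.882 (0.0223 to 4.91) in chow libraries. The intervals cover counting error only, and that of the NO2-OA library overlapped all 4 others. Mean shares were 0.00979% in HFD + L-NAME libraries and 0.0183% in chow libraries, a difference of -0.00851 percentage points (exact two-sided permutation p = 0.667, where 2 libraries against 2 cannot go below 0.333). Without the library chow 1 the difference was 0.000973 percentage points, in the opposite direction. The NO2-OA share was 0.0462 percentage points above the HFD + L-NAME mean, with 1 library and hence no replicate check.

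**Figure D2:**
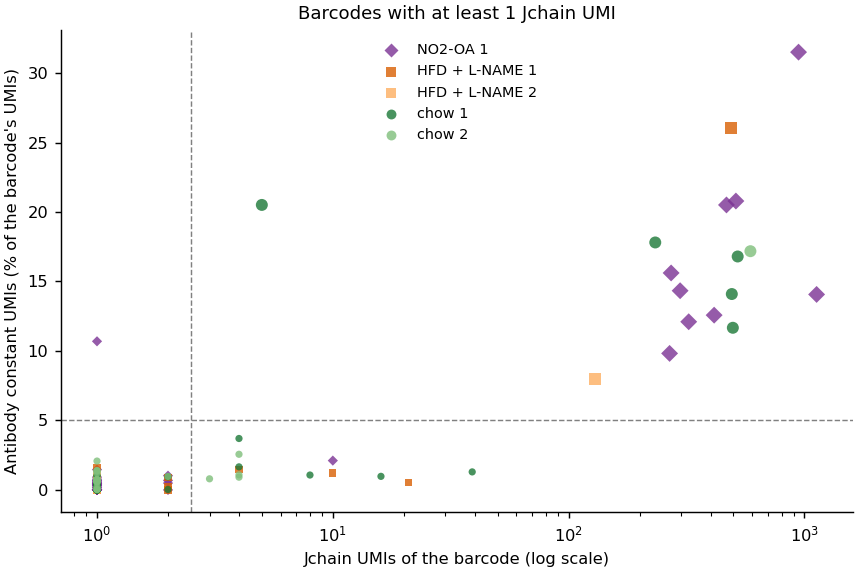
Every barcode with at least 1 Jchain UMI, by its Jchain UMIs (horizontal axis, log scale) and the share of its UMIs from the 8 antibody constant genes (vertical axis, percent). Dashed lines mark the rule for secreting-like barcodes, shown as larger symbols. Of the 17, 16 have 129 or more Jchain UMIs, and 1 barcode of chow 1 has 5.

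The 17 barcodes held 97.8% of the Igha UMIs of the NO2-OA library, 90.8% and 0% of those of HFD + L-NAME 1 and 2, and 91.9% and 89.5% of those of chow 1 and 2. Of Jchain they held 98.8% in the NO2-OA library, 90.9% and 94.9% in HFD + L-NAME libraries, and 94.3% and 94.4% in chow libraries. Igkc was touched mainly in the NO2-OA library, where these barcodes held 18.0% of its UMIs, against 0.883% to 6.46% in the other 4 libraries.

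The antibody share left a gap around the rule for all but a few barcodes, but Jchain counts overlapped. Outside the rule, a chow 1 barcode had 39 Jchain UMIs at a share of 1.30%. A barcode of HFD + L-NAME 1 had 21 at 0.538%, and another of chow 1 had 16 at 0.977%, with 54 Igha and 3 Tnfrsf17 UMIs. Each was a predicted doublet. Of the 17 barcodes the lowest antibody share was 7.97%, in HFD + L-NAME 2, and the lowest Jchain count was 5, in a barcode of chow 1 with 2633 UMIs that failed the mitochondrial filter at 14.6%. Just outside stood a chow 1 barcode at 3.702% with 4 Jchain UMIs and 30 Ighg1 UMIs, which was a predicted doublet. A chow 2 barcode at 2.57% also had 4 Jchain UMIs, with 10 UMIs of Prdm1, the repressor that drives plasma cell maturation. In the NO2-OA library a barcode of only 720 UMIs reached 10.7% with 1 Jchain UMI.

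IgA was the heavy chain of nearly all of these barcodes. Igha had most heavy-chain UMIs in 16 of the 17, all except the barcode of HFD + L-NAME 2, and held 94.1% to 100% of the heavy-chain UMIs there. The 9 barcodes of the NO2-OA library had 396 to 2254 Igha UMIs (median 958), the barcode of HFD + L-NAME 1 had 1409, those of chow 1 had 64 to 1178 (median 937), and that of chow 2 had 1284. Ighm reached no more than 1 UMI in any of the 16, and 14 of them had none of Ighd. Igkc exceeded the heavy chains in each of the 16, by 1.43 to 6.94 UMIs per heavy-chain UMI (median 2.59), and supplied at least 95.5% of the light-chain constant UMIs.

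A few IgG UMIs accompanied Igha. Ighg2b had 23 and 20 UMIs in 2 NO2-OA barcodes, Ighg2c had 59 and 15 in 2 chow 1 barcodes, and Ighg1 had 4 in another chow 1 barcode. These few barcodes held 93.7% of all Ighg2c UMIs of chow 1 and 18.5% of all Ighg2b UMIs of the NO2-OA library. The origin of these UMIs was not tested.

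The secreting-like barcode of HFD + L-NAME 2 differed from the other 16. It had 63 Ighm, 9 Ighg3 and 1266 Igkc UMIs, no Igha, and 129 Jchain UMIs, so that Igkc exceeded the heavy chains 17.6 to 1. It also had 72 UMIs of Cd79a and 16 of Ms4a1, which encode a signalling part of the B-cell receptor and CD20, against at most 13 and 1 in the other 16. T-cell markers summed to 36 UMIs in it, and Tnfrsf17 was not detected among its 16778 UMIs.

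Tnfrsf17, which took no part in the rule, lay mostly in the secreting-like barcodes outside the HFD + L-NAME libraries. It was detected in 14 of the 17, with up to 30 UMIs, and these barcodes held 97.2% of its UMIs in the NO2-OA library, 33.3% and 0% in HFD + L-NAME libraries, and 78.6% and 71.4% in chow libraries. Among 25362 other B-like cells 5 had a UMI, against 1 of 14950 T-like cells, too few to read a level in either class at this depth. Macrophage-like cells held 6 of the 8 Tnfrsf17 UMIs of HFD + L-NAME 2, in 4 of 314 cells, and 3 of the 14 of chow 2, in 2 of 102 cells. These cells were deep, with medians of 28057 and 24912.5 UMIs, and formed a cluster with cells from these 2 libraries only.

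Most but not all of the genes of secretion that were examined were detected in most of these barcodes. Mzb1, a chaperone of antibody assembly, was detected in 16 of 17, Xbp1, the regulator of the secretory response, in 17, and Prdm1 in 15. Mzb1 reached 2384 to 3303 counts per 1000000 UMIs (CPM) in the summed secreting-like barcodes of a library, against 79.8 to 192 CPM in the other B-like cells, and was higher in all 5 libraries. Hsp90b1, the endoplasmic reticulum chaperone GRP94, reached 775 to 4843 CPM against 143 to 319 CPM. Sdc1, the surface marker CD138, was found in 7 of 17. Irf4, a factor needed for plasma cell fate, was found in 13 of 17, but its level exceeded that of the other B-like cells in only 2 of 5 libraries, with medians over libraries of 165 CPM in the secreting-like barcodes and 281 CPM in the other B-like cells. Ccr10, the chemokine receptor of IgA plasma cells, was detected in 12. Ccr9, a receptor for homing to the small intestine, was detected in 6. Its level exceeded that of the other B-like cells in only 2 of 5 libraries, with medians of 27.6 CPM in the secreting-like barcodes and 34.0 CPM in the others. Itgb7, the integrin chain of gut-homing lymphocytes, was detected in all 17. Mki67, a marker of dividing cells, was found in 10, of which 4 lay in the NO2-OA library, 1 in HFD + L-NAME 1, and 4 and 1 in chow libraries. The B-cell markers were unevenly kept. Cd79a was found in 16 of the 17 barcodes with 151 UMIs in all, of which 72 lay in the barcode of HFD + L-NAME 2, and Cd79b, its partner in the B-cell receptor, was found in 13 with 117 UMIs. Ebf1, an early B-cell factor, was found in 10 of 17 and was below the other B-like cells in all 5 libraries. Ms4a1 was found in 4 barcodes, Pax5, the factor that maintains B-cell identity, had 1 UMI, and Cd22 had 0.

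Markers of other cells were low in most of the 17 but not in all. T-cell markers summed to 0 to 4 UMIs in 13 barcodes, and to 23 and 38 in 2 NO2-OA barcodes, 36 in HFD + L-NAME 2 and 13 in chow 2. Of the 9 NO2-OA barcodes 3 were predicted doublets, and 1 of these, with 38 T-marker UMIs, lay in a T-like cluster. Clustering used no antibody gene, and 15 of the 17 lay in the B-like cluster led by Sox5.

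The variable segments showed that the barcodes of the NO2-OA library were not all different. The segment pairs with most UMIs numbered 6 among its 9 barcodes, since Ighv1-53 with Igkv13-85, Ighv1-76 with Igkv5-43, and Ighv1-80 with Igkv6-20 each occurred in 2 barcodes. The 2 barcodes with Ighv1-53 and Igkv13-85 were also those with 23 and 20 Ighg2b UMIs. The 5 barcodes of chow 1 had 5 different pairs, counting 1 with no kappa segment UMI. Several of these calls rest on few UMIs, for instance 3 and 2 for Igkv13-85, and shared ancestry of the cells was not tested.

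Differences between groups were first tested on sums over all barcodes of a library, with edgeR's quasi-likelihood test fitted to 21076 genes and Benjamini-Hochberg adjustment. None of the 10 members passed an adjusted p of 0.05 in HFD + L-NAME against chow or in NO2-OA against HFD + L-NAME, where 0% of all tested genes passed in either comparison, higher or lower. Unadjusted p fell under 0.05 for 602 genes in HFD + L-NAME against chow and 592 in NO2-OA against HFD + L-NAME, among them 1 and 3 of the members. The median log2 fold change of the members was 0.01 in HFD + L-NAME against chow and -0.44 in NO2-OA against HFD + L-NAME, with 5 and 4 of the 10 above 0, and the medians over all tested genes were -0.0045 and -0.018. DESeq2 called 47 and 127 genes. In B-like cells (17010 genes tested) edgeR likewise called 0 genes (0%) in both comparisons, with 216 and 269 under an unadjusted p of 0.05, and DESeq2 called 4 and 44.

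The NO2-OA library had the highest levels of the 3 genes of the secreting-like barcodes. Igha stood at 91.9 CPM in the NO2-OA library (exact Poisson interval of its UMIs 90.1 to 93.7 CPM, counting error only), against 17.3 and 3.44 CPM in HFD + L-NAME libraries, a log2 fold change of 3.06 ± 1.07 (SE, edgeR adjusted p = 1.00). Jchain stood at 42.7 CPM in the NO2-OA library (41.5 to 43.955) against 5.99 and 1.91 CPM in HFD + L-NAME libraries, a log2 fold change of 3.35 ± 0.80 (edgeR adjusted p = 1.00). Tnfrsf17 stood at 0.977 CPM (0.801 to 1.18) against 0.0335 and 0.112 CPM, a log2 fold change of 3.69 ± 0.77 (edgeR adjusted p = 1.00). With DESeq2 the adjusted p was 0.0358 for Igha, 0.00298 for Jchain and 0.102 for Tnfrsf17. In B-like cells DESeq2 called Tnfrsf17 but neither Igha nor Jchain, whose log2 fold changes there were 3.15 and 3.42. The Poisson intervals treat each UMI as independent. In the NO2-OA library, however, 9 secreting-like barcodes held 97.8% of the Igha, 98.8% of the Jchain and 97.2% of the Tnfrsf17 UMIs. The intervals therefore do not cover the sampling of so few cells and are too narrow for it. The NO2-OA value of each gene rests on 1 library, and its spread is borrowed from the other groups.

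In the NO2-OA library most UMIs of these genes lay in the secreting-like barcodes, which were picked by their antibody and Jchain UMIs. Leaving these barcodes out therefore had to lower Igha and Jchain, so the values that follow are a description. With the 17 barcodes left out, Igha was at 1.99 CPM in the NO2-OA library, 1.60 and 3.44 CPM in HFD + L-NAME libraries, and 2.64 and 1.74 CPM in chow libraries. The log2 fold change of NO2-OA against HFD + L-NAME then turned to -0.40 for Igha and -1.27 for Tnfrsf17, and was 0.54 for Jchain (edgeR adjusted p = 1.00 each). The Tnfrsf17 value rests on 3 remaining UMIs in the NO2-OA library against 2 and 8 in HFD + L-NAME libraries, of which 6 lay in macrophage-like cells. In B-like cells Tnfrsf17 fell below the count filter once these barcodes were left out, and it has no value there. It then had 2 UMIs in the NO2-OA library and 1 in each HFD + L-NAME library. In HFD + L-NAME against chow, the change of Igha was -1.13 ± 0.91 with all barcodes and 0.29 without the secreting-like ones, and that of Jchain was -1.39 ± 0.68 and -0.85 (edgeR adjusted p = 1.00 each). Within replicate number 1 the change of Jchain in this comparison was -1.22, and within number 2 it was -1.83. Single libraries moved these values: with all barcodes, the change of Igha was -2.75 without HFD + L-NAME 1, -0.38 without HFD + L-NAME 2 and -0.54 without chow 1, and that of Jchain was -2.47, -0.78 and -0.73 without the same libraries. In NO2-OA against HFD + L-NAME the change of Igha was 4.68 without HFD + L-NAME 1 and 2.31 without HFD + L-NAME 2.

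**Figure D3:**
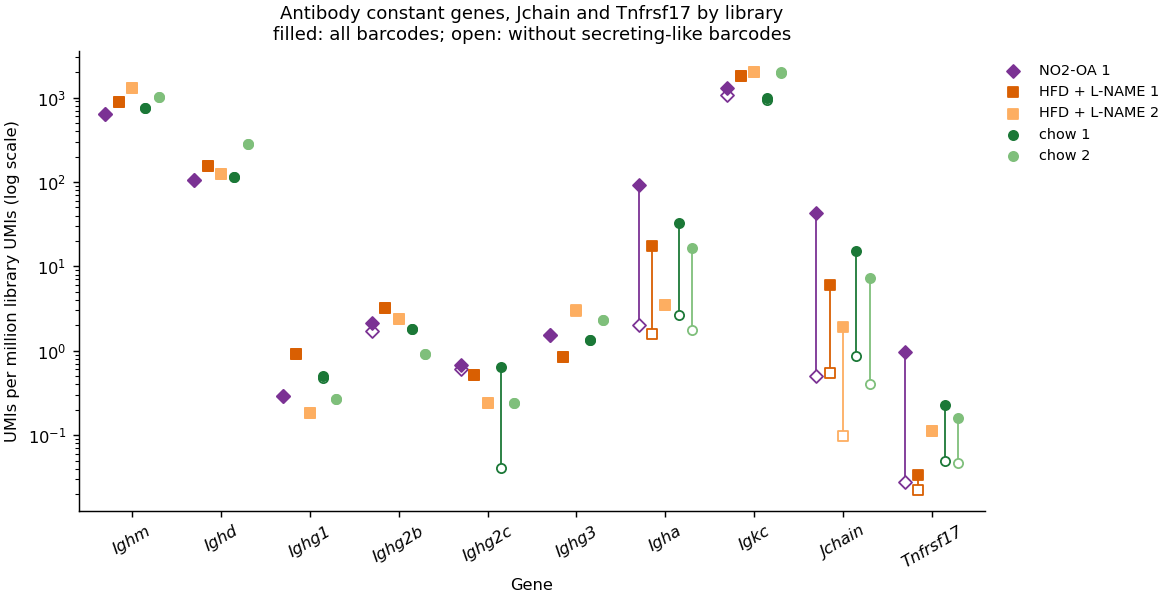
Level of the 10 members in each library (vertical axis, CPM, counts per 1000000 UMIs of the library, log scale), in all barcodes (filled) and without the 17 secreting-like barcodes (open). A line joins the values of a library. Without these barcodes Igha is at 1.60 to 3.44 and Jchain at 0.0983 to 0.861 in all libraries, whereas the points of Ighm, Ighd and Ighg3 hardly move.

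Ighm, Ighd and Igkc were compared in the B-like cells. Ighm had 1837 CPM of B-like UMIs in the NO2-OA library, 1805 and 2788 CPM in HFD + L-NAME libraries, and 1875 and 2135 CPM in chow libraries. HFD + L-NAME 2 was highest and the other 4 libraries lay between 1805 and 2135 CPM, with a log2 fold change of 0.20 ± 0.30 in HFD + L-NAME against chow (edgeR adjusted p = 1.00). The B-like cells of HFD + L-NAME 2 also held the largest share of the 2 clusters with most Ighm per UMI, those led by Agbl1 and Akap12 (34.7%) and by Sox5 (16.6%), and the part of this in its Ighm level was not tested. Igkc had 3832 CPM in the NO2-OA library, 3758 and 4475 CPM in HFD + L-NAME libraries, and 2627 and 4418 CPM in chow libraries, where chow 1 was lowest. These B-like sums include the secreting-like barcodes that were kept as B-like cells. Without them the NO2-OA library had 3234 CPM of Igkc, below the 3692 and 4432.5 CPM of HFD + L-NAME libraries. The chow libraries then had 2420 and 4290 CPM. The log2 fold change of Igkc in NO2-OA against HFD + L-NAME was -0.12 with these barcodes and -0.34 without them. Over all barcodes, where fewer B cells and less RNA per B cell cannot be told apart, Ighm had 640 CPM in the NO2-OA library, 896 and 1295 CPM in HFD + L-NAME libraries, and 745 and 1025 CPM in chow libraries.

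Ighd was set apart by 1 library. In B-like cells it had 318 CPM in the NO2-OA library, 315 and 273 CPM in HFD + L-NAME libraries, and 303 and 592 CPM in chow libraries, so that chow 2 stood alone above the other 4. The log2 fold change of HFD + L-NAME against chow was -0.60 ± 0.35 (edgeR adjusted p = 1.00), and without chow 2 it was 0.0025. Within replicate number 1 it was 0.11 and within number 2 it was -1.15. With each cell thinned to 2000 UMIs, 44.5% of B-like cells had an Ighd UMI in the NO2-OA library, 44.4% and 42.1% in HFD + L-NAME libraries, and 42.6% and 65.5% in chow libraries. Unthinned, the shares were 72.6% in the NO2-OA library, 74.3% and 74.8% in HFD + L-NAME libraries, and 71.2% and 88.2% in chow libraries. The share in T-like cells was 1.45% to 4.52% unthinned, at median depths of 5592 to 8804 UMIs against 5201 to 7796 in B-like cells.

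The B-like clusters differed in their heavy chains in every library, which is given as a description since the clusters come from the same cells. In the Sox5 cluster, whose leading genes include Zbtb32 and Fcrl5, Ighd had 140 CPM in the NO2-OA library, 142 and 72.4 CPM in HFD + L-NAME libraries, and 154 and 197 CPM in chow libraries. The other 5 clusters had 239 to 760 CPM of Ighd. Ighd UMIs per Ighm UMI ranged from 0.0227 to 0.0652 in the Sox5 cluster and from 0.0636 to 0.146 in the cluster led by Agbl1 and Akap12, whose leading genes also include Vpreb3, a gene of B-cell precursors and young B cells. The clusters led by Gm31243, Cr2, Gm20513 and Hcrtr2 had 0.179 to 0.462. Ighm was at 3268 to 3757 CPM in the Akap12 cluster and at 2356 to 3395 CPM in the Sox5 cluster, which were level in chow 2 (3392 and 3395 CPM), and lay between 1377 and 1934 CPM in the other 4. Igkc differed less, with medians over libraries of 3315 to 4558 CPM.

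In the clusters led by Gm31243, Cr2, Gm20513 and Hcrtr2, the libraries numbered 2 had the highest Ighd. In the Gm31243 cluster, for example, it stood at 346 CPM in the NO2-OA library, 328 and 439 CPM in HFD + L-NAME libraries, and 317 and 665 CPM in chow libraries. In these 4 clusters HFD + L-NAME 2 thus exceeded HFD + L-NAME 1 as chow 2 exceeded chow 1, while its summed B-like level was the lowest of the 5. Its B-like cells included 34.7% from the Akap12 cluster, against 13.3% to 14.7% elsewhere, besides the 16.6% from the Sox5 cluster.

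**Figure D4:**
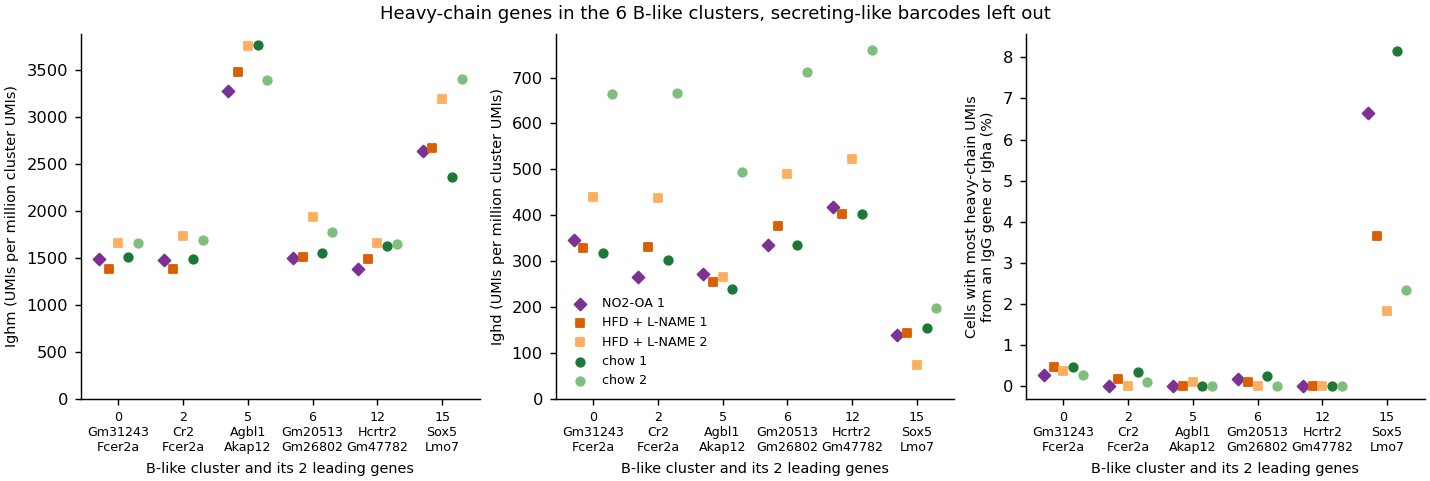
Ighm and Ighd (counts per 1000000 UMIs of the cluster) and the share of cells with most heavy-chain UMIs from an IgG gene or Igha (percent), in the 6 B-like clusters of each library with secreting-like barcodes left out. The Akap12 and Sox5 clusters are high in Ighm, the Sox5 cluster is low in Ighd, and 1.84% to 8.15% of its cells are switched, against at most 0.477% in any other cluster.

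Switched B cells were rare outside the secreting-like barcodes. Among 23361 B-like cells with at least 3 heavy-chain UMIs, Ighm led in 22201, Ighd in 1059, and an IgG gene or Igha in 101. The switched share was 0.516% in the NO2-OA library (exact 95% interval 0.327 to 0.773), 0.387% (0.240 to 0.591) and 0.457% (0.244 to 0.781) in HFD + L-NAME libraries, and 0.523% (0.353 to 0.746) and 0.286% (0.156 to 0.479) in chow libraries. All 5 intervals overlapped. Ighg2b led in 44 of the 101 cells, Igha in 22, Ighg3 in 16, Ighg1 in 10 and Ighg2c in 9. The Sox5 cluster held 55 of them, or 54.5%, and 3.81% of its cells with at least 3 heavy-chain UMIs were switched. Jchain was detected in 14 of the 101.

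The B-like cell with most Igha outside the secreting-like barcodes, chosen after its values were seen, lay in HFD + L-NAME 2. It had 121 Igha and 418 Igkc UMIs, no other heavy-chain UMI and no Jchain UMI, and its antibody share was 1.65%. These 121 were the largest single share of the 245 Igha UMIs of that library. In the Sox5 cluster Igha had 24.5 CPM in the NO2-OA library, 16.3 and 19.7 CPM in HFD + L-NAME libraries, and 35.5 and 19.1 CPM in chow libraries. In any other B-like cluster it had at most 7.11 CPM.

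The IgG genes gave few UMIs and large scatter. Ighg2b had 6.39 CPM of B-like UMIs in the NO2-OA library, 6.54 and 5.83 CPM in HFD + L-NAME libraries, and 4.82 and 2.18 CPM in chow libraries. Both HFD + L-NAME libraries were above both chow libraries, with a log2 fold change of 0.84 ± 0.41 (edgeR adjusted p = 1.00). In NO2-OA against HFD + L-NAME it was 0.03 ± 0.50 (edgeR adjusted p = 1.00). Ighg3 had 4.84 CPM in the NO2-OA library, 1.91 and 6.73 CPM in HFD + L-NAME libraries, and 3.75 and 5.07 CPM in chow libraries, with overlap between all groups. A single barcode could set a library's value: 1 barcode had 57 of the 82 Ighg1 UMIs of HFD + L-NAME 1, and another had all 13 of HFD + L-NAME 2.

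Outside the B-like cells the antibody genes were not carried in 1 common ratio. Ighm was detected in 24.8% to 46.8% of T-like cells and Igkc in 5.15% to 15.1%, at 58.5 to 102.9 CPM and 8.49 to 30.7 CPM. The T-like cells had 4.55 Ighm UMIs per Igkc UMI in the NO2-OA library, 3.46 and 3.12 in HFD + L-NAME libraries, and 8.32 and 4.12 in chow libraries. B-like cells had 0.571 in the NO2-OA library, 0.489 and 0.629 in HFD + L-NAME libraries, and 0.777 and 0.498 in chow libraries. Every T-like value was above every B-like value. Pooled over libraries the ratio was 0.599 in erythroid-like, 0.829 in platelet-like, 2.79 in monocyte-like and 3.27 in plasmacytoid-like barcodes, against 0.576 in B-like cells. In the last class 76.5% of 481 cells had an Ighm UMI. T-like cells had the higher median depth in all 5 libraries, and the source of Ighm UMIs in cells other than B cells was not tested.

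**Figure D5:**
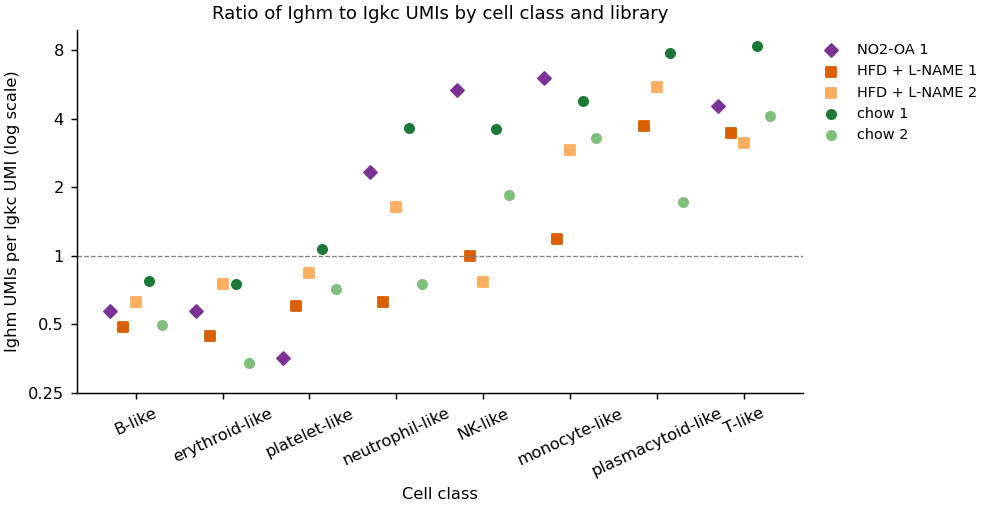
Ighm UMIs per Igkc UMI (vertical axis, log scale) in 8 cell classes of each library, secreting-like barcodes left out. B-like, erythroid-like and most platelet-like values lie below 1 (dashed line), and T-like values lie between 3.12 and 8.32. The plasmacytoid-like class of the NO2-OA library had only 3 cells and no Igkc UMI, and is not drawn.

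The rare members were found in few cells of either class outside the secreting-like barcodes. Jchain was found in 20 and Igha in 41 of 14950 T-like cells, against 64 and 283 of the 25362 B-like cells outside the secreting-like barcodes. The B-like share with an Igha UMI was 1.19% in the NO2-OA library, 1.04% and 2.08% in HFD + L-NAME libraries, and 0.719% and 1.06% in chow libraries. The T-like share with an Igha UMI was 0.559% in the NO2-OA library, 0.0433% and 0.155% in HFD + L-NAME libraries, and 0.174% and 0.213% in chow libraries. For Jchain the B-like share was 0.404% in the NO2-OA library, 0.102% and 0.168% in HFD + L-NAME libraries, and 0.224% and 0.360% in chow libraries, and the T-like share was 0.201% in the NO2-OA library, 0.0433% and 0% in HFD + L-NAME libraries, and 0.174% and 0.0427% in chow libraries. The B-like share was higher than the T-like share in all 5 libraries for both genes, but the intervals overlapped for Jchain in each of them. Ighg1 and Ighg2c had no UMI in T-like cells.

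Other genes of antibody production, taken as lists, did not pass the test in B-like cells either. Of 20 genes of the secretory program 0 were higher or lower in HFD + L-NAME against chow, with a median log2 fold change of 0.19 against -0.01 over all tested genes. In NO2-OA against HFD + L-NAME 0 of the 20 passed, with a median of -0.09 against -0.02. By mean level the list was led by Irf4, Hsp90b1, Ell2 and Pou2af1. Irf4 had 328 CPM in the NO2-OA library, 241 and 257 CPM in HFD + L-NAME libraries, and 373 and 280 CPM in chow libraries. Ell2, an elongation factor that favours secretory heavy-chain RNA, ranged from 193 to 290 CPM and Pou2af1, a B-cell coactivator, from 174 to 221 CPM. Of the 6 genes of the BAFF and APRIL axis 0 passed in either comparison. Tnfrsf13b, the receptor TACI that shares its ligands with Tnfrsf17, had 48.9 CPM in the NO2-OA library, 41.6 and 85.6 CPM in HFD + L-NAME libraries, and 46.5 and 88.0 CPM in chow libraries, so that both libraries numbered 2 were higher than the 3 numbered 1. Tnfrsf13c, the BAFF receptor of mature B cells, ranged from 75.7 to 116 CPM, and the signalling adaptors Traf3 from 252 to 390 CPM and Traf2 from 25.5 to 31.6 CPM. Of 8 genes of class switching and the germinal centre 0 passed in either comparison, and Bcl6, the repressor of the germinal centre, ranged from 37.0 to 73.4 CPM. The DNA repair genes Apex1 and Ung ranged from 16.5 to 26.2 CPM and from 7.28 to 9.54 CPM. The lambda constant genes Iglc1, Iglc2 and Iglc3 also gave no call, and Iglc2 had 514 CPM in the NO2-OA library, 526 and 943 CPM in HFD + L-NAME libraries, and 471 and 976 CPM in chow libraries. Ighe, the heavy chain of IgE, was too low to be tested.

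The genes whose level over 21 groups of cells, namely the 20 clusters and the secreting-like barcodes, was most like that of Jchain were Mgat3 (Pearson r = 0.99 of log2 CPM plus 1), A4galt (0.99), Gm8879 (0.98), Derl3 (0.98) and Eef1akmt3 (0.98). For Tnfrsf17 they were Mgat3, A4galt, Eef1akmt3, Gm8879 and Gm41206, at 0.98 to 0.99. Mgat3 and A4galt encode glycosyltransferases, and Derl3 acts in the disposal of misfolded proteins of the endoplasmic reticulum. Derl3 had 144 CPM in the secreting-like barcodes and at most 2.84 CPM in any cluster, whereas the others had 11.1 to 16.6 CPM, just above the minimum of 10 CPM for this comparison. The group held only 17 barcodes of 2633 to 53376 UMIs. For each gene other than Derl3, its level there thus rests on a few UMIs in all. The secreting-like group was itself defined by Jchain UMIs, and these genes reached the minimum in that group alone, with at most 2.84 CPM in any cluster. The r values are therefore a description only.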

How the data were processed

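The authors deposited 1 matrix of raw UMI counts per gene and barcode for each library. Cell Ranger 7.1.0 made these counts, per the file headers. The genome build was mm39 and bcl2fastq was among the tools, per the submitters' processing notes. The annotation release is not given in the sources used here. Per the labels' protocols, 3′ libraries were made from frozen mononuclear cells.

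Libraries held 71216133 to 122022000 UMIs. Levels over all barcodes and the secreting-like rule used every deposited barcode. For classes, barcodes with at least 200 genes and under 10% mitochondrial UMIs were kept, and the barcodes with the highest scrublet scores were left out as predicted doublets (6.79% to 14.4% per library). Clusters came from scanpy 1.11.5 and leidenalg 0.10.2 at resolution 1, with 20 neighbours on 40 principal components of 2000 variable genes, without antibody genes, Jchain and Tnfrsf17. Classes were named from marker lists at a mean score of at least 1.5, by thresholds set after the data were seen, and 2.23% to 6.84% of kept cells stayed unnamed. A class name such as B-like rests on RNA alone.

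UMI counts summed per library were tested in edgeR 4.0.16 with filterByExpr, TMM scaling and a robust quasi-likelihood fit of group means over all 5 libraries, at a false discovery rate of 0.05. The SE is the log2 fold change over the square root of the F statistic. DESeq2 1.42.0 was an alternative. CPM are counts per 1000000 UMIs. Both fits had 2 residual degrees of freedom. On simulated counts with 200 genes changed 4-fold, the fit recovered 62.5% of them over all barcodes and 82.5% in B-like cells (HFD + L-NAME against chow). It also called 14 and 19 unchanged genes. The changed genes were drawn from genes with many UMIs only, so these rates do not hold for scarce members such as Tnfrsf17. NO2-OA against HFD + L-NAME was not simulated. Coding sequences were read from GENCODE M21 transcripts.

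All 10 members are named. From each pathway list those past the threshold are named, or else the 4 with the highest mean, of which 1 is not reported here. For likeness the 5 genes with the highest r are named. Further genes described in the secreting-like barcodes were chosen after their values were seen. The members and lists were chosen with earlier results of these data known.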

Additional observations from a re-analysis of the deposited data

How the results depend on the processing

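None of the 10 members passed the main test, so the alternatives bear on direction and size. The number of genes called moved with the tool and with the replicate block. DESeq2 called 47 genes in HFD + L-NAME against chow and 127 in NO2-OA against HFD + L-NAME over all barcodes, and 4 and 44 in B-like cells, where edgeR called 0. With no filter on low counts edgeR called 1 and 2 genes in B-like cells. With each library left out in turn the count ran from 0 to 3 and stayed at 0 over all barcodes, and ran from 0 to 5 and from 0 to 15 in B-like cells. Of 494 alternative values for members 448 kept direction and side of the threshold, 38 reversed and 8 passed the threshold. Those 8 were 3 with DESeq2 (adjusted p 0.0358 for Igha and 0.00298 for Jchain over all barcodes, and 0.00616 for Tnfrsf17 in B-like cells, NO2-OA against HFD + L-NAME), 1 without the filter (Tnfrsf17, edgeR adjusted p = 0.00835) and 4 under the replicate block. The cause was not tested.

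Replicate numbers were not shown to pair the libraries, since there are only 2 numbers and the labels do not say what they mark. The names of the deposited files carry 1 of 2 prefixes that coincide with these numbers, with no stated meaning, and the macrophage-like cluster had 359 cells in HFD + L-NAME 2, 131 in chow 2 and 0 in the 3 libraries numbered 1. Same-numbered libraries of HFD + L-NAME and chow deviated together (correlation 0.378 over all barcodes and 0.354 in B-like cells). A fit with the numbers as a block has fewer residual degrees of freedom than the 2 of the main fits. NO2-OA occurs under number 1 only. With the replicate block edgeR called 5 and 0 genes over all barcodes and 7 and 93 in B-like cells. Under the block the adjusted p in B-like cells was 0.00361 for Jchain in HFD + L-NAME against chow, and 0.0192 for Igha, 8.09e-05 for Jchain and 0.00534 for Tnfrsf17 in NO2-OA against HFD + L-NAME. The log2 fold change of Ighg3 over all barcodes turned to -0.041 and 0.48 in the 2 comparisons, and in B-like cells that of Ighg2b turned to -0.30 and that of Igkc to 0.13 in NO2-OA against HFD + L-NAME.

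Leaving out the secreting-like barcodes turned the log2 fold change of HFD + L-NAME against chow to 1.56 for Ighg2c, 0.29 for Igha and 0.53 for Tnfrsf17 over all barcodes, and to 1.37 for Ighg2c and 0.61 for Igha in B-like cells. In NO2-OA against HFD + L-NAME it turned Igha to -0.40 and Tnfrsf17 to -1.27 over all barcodes, and Ighg2b to -0.14 and Igha to -0.32 in B-like cells. Thinning to the smallest library turned Ighg2c to 0.19 over all barcodes in HFD + L-NAME against chow. Leaving out the Sox5 cluster, chosen after seeing the data, gave -3.04 for Ighg1 and 0.27 for Igha in HFD + L-NAME against chow, and -0.069 for Ighd, 3.25 for Ighg1 and -0.94 for Ighg2b in NO2-OA against HFD + L-NAME.

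With single libraries left out, reversals fell on these ranges. Over all barcodes in HFD + L-NAME against chow they were -0.86 to 0.38 for Ighd, -1.004 to 1.35 for Ighg1, -0.82 to 0.77 for Ighg2c and -1.02 to 0.81 for Ighg3. In NO2-OA against HFD + L-NAME they were -1.74 to 0.62 for Ighg1 and -1.05 to 0.77 for Ighg3. In B-like cells in HFD + L-NAME against chow they were -0.11 to 0.46 for Ighm, -1.02 to 0.0025 for Ighd, -0.057 to 2.16 for Ighg1, -1.31 to 0.71 for Ighg2c, -1.17 to 0.59 for Ighg3 and -0.12 to 0.69 for Igkc. In NO2-OA against HFD + L-NAME they were -0.025 to 0.23 for Ighd, -1.24 to 0.96 for Ighg1, -0.072 to 0.14 for Ighg2b and -0.47 to 1.30 for Ighg3. With single libraries left out, no sign of the following changed. In NO2-OA against HFD + L-NAME no sign could change. The 1 NO2-OA library stayed in each of these fits and exceeded both HFD + L-NAME libraries for Igha, Jchain and Tnfrsf17. Nor could the signs of Jchain and Tnfrsf17 change in HFD + L-NAME against chow. Both HFD + L-NAME libraries lay below both chow libraries for these genes, over all barcodes and in B-like cells. The ranges of these genes thus bear on size only. In B-like cells Tnfrsf17 stood at only 0.0554 and 0.0360 CPM in HFD + L-NAME libraries. Over all barcodes, Igha ran from 2.31 to 4.68, Jchain from 2.74 to 4.43 and Tnfrsf17 from 3.05 to 4.73 in NO2-OA against HFD + L-NAME, and from -2.75 to -0.38, -2.47 to -0.73 and -2.40 to -0.72 in HFD + L-NAME against chow. In B-like cells, Igha ran from 2.39 to 4.84, Jchain from 2.83 to 4.42 and Tnfrsf17 from 5.40 to 6.01 in NO2-OA against HFD + L-NAME, and from -3.24 to -0.74, -2.85 to -0.96 and -3.67 to -2.58 in HFD + L-NAME against chow. The difference in the share of secreting-like barcodes between HFD + L-NAME and chow ran from -0.018 to 0.000973 percentage points. Where a group is left with 1 library, that library is assumed to vary like the other groups. Thinning each cell to 2000 UMIs moved 40 of 50 shares of B-like cells with a UMI beyond their counting interval.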
